A study of Mus musculus with 12 samples.

Results

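A pair of single treatments was set against each other in whole bone marrow of B6 mice: total body irradiation (TBI) followed by vehicle, and the carotenoid DEIX without irradiation. All 3 TBI libraries and all 3 DEIX libraries of the series entered the comparison, 6 of its 12 libraries, and they were compared directly, not through the control. TBI mice received 5 Gy of gamma rays at 0.66 Gy/min and then olive oil by gavage, 100 µL a dose. DEIX, the treatment that the series title names as deinoxanthin, was given at 25 mg/kg once a day for 14 days to mice that were not irradiated. Marrow was collected at 14 days after irradiation, or at the matching time. A carrier for DEIX in the unirradiated mice, a gavage of the control mice, and the age and sex of the animals were not given in the sources used here. The groups therefore differed in irradiation, in the compound and in the stated vehicle, and which of these goes with a difference cannot be told apart. The 3 unirradiated control libraries served only as a reference level, and the 3 irradiated libraries that also had DEIX were left out. Nothing in the labels says whether a library came from 1 mouse or from a pool, so p-values measure the spread between these samples.

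Bone marrow makes blood cells from stem and progenitor cells, which divide and commit to the red cell, platelet, granulocyte, monocyte or lymphoid lines. B cells are built there in steps: precursors cut and join their antibody genes and carry a surrogate light chain in the pre-B receptor, and later cells switch this machinery off and put CD20, CD23 and the IgM Fc receptor on their surface. Dividing blood precursors and lymphocytes are known as the radiosensitive cells of marrow, whereas macrophages, osteoclasts and stromal cells divide little. Deinoxanthin is a carotenoid pigment of Deinococcus bacteria with antioxidant activity.

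Expression was given as FPKM, a fragment count scaled to the length of the transcript and to the size of the library, and it is the unit of every level below. Differences are of log2(FPKM + 1), TBI minus DEIX, so a positive value means higher in TBI, and this scale understates changes of genes with low FPKM. A called gene is one whose adjusted p (Benjamini-Hochberg, limma fitted to the 6 libraries) was under 0.05. Summed FPKM ran from 555376 to 586025 in TBI and from 607363 to 702948 in DEIX, and no read totals were in the table. Marrow markers were present in all 6 libraries (neutrophil Mpo at an FPKM of 821 or more, T cell Cd3e at 1.25 or more), and the liver gene Alb was listed at 0 in all 6. None of 6 liver markers and 1 of 6 skeletal muscle markers reached the level for testing, and the muscle markers summed to an FPKM of 5.349 to 7.458 in TBI and 2.786 to 5.357 in DEIX. A pair of very abundant neutrophil genes stayed in the fit but are not read, because S100a9 was listed at 0 in TBI replicates 1 and 2 and Ngp in TBI replicates 1 and 2 and DEIX replicate 3, while both were very high in the remaining libraries.

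Of 10647 tested genes, 49 were called, which is 0.46% of those tested. They divided unevenly: 43 (0.404%) were higher in DEIX and 6 (0.0564%) were higher in TBI. The genes higher in DEIX included genes of mature B cells and other lymphocytes, of stem cells and megakaryocytes, and of monocytes and neutrophils; those higher in TBI were Ctsk, Atp6v0d2, Sparc, Cd5l, Plvap and Tjp1. Ratios of mean FPKM ran from 1.51 to 45.3 among the 43 and from 2.8 to 8.17 among the 6, and adjusted p from 0.015 to 0.0498 over the 49. All 49 had TBI libraries that did not overlap with the DEIX libraries, as did 25.3% of all tested genes. An unadjusted p under 0.05 was found for 2198 of the 10647 genes. The shares given here are the background for the counts of list members below.

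The number of calls rested on single libraries. It was 0 without TBI replicate 2, where 1441 genes had an unadjusted p under 0.05 and the smallest adjusted p was 0.107. It was 2 without TBI replicate 3, 3 without DEIX replicate 1 and 3 without DEIX replicate 3, but 387 without TBI replicate 1 and 129 without DEIX replicate 2. Every one of the 49 kept its direction in each of these 6 fits, which could not be otherwise because their libraries did not overlap. On a TPM scale, which moved the median difference of all genes from -0.000588 to 0.149, 14 genes were called, of which 28.6% were higher in TBI against 12.2% on the FPKM scale.

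**Figure D1:**
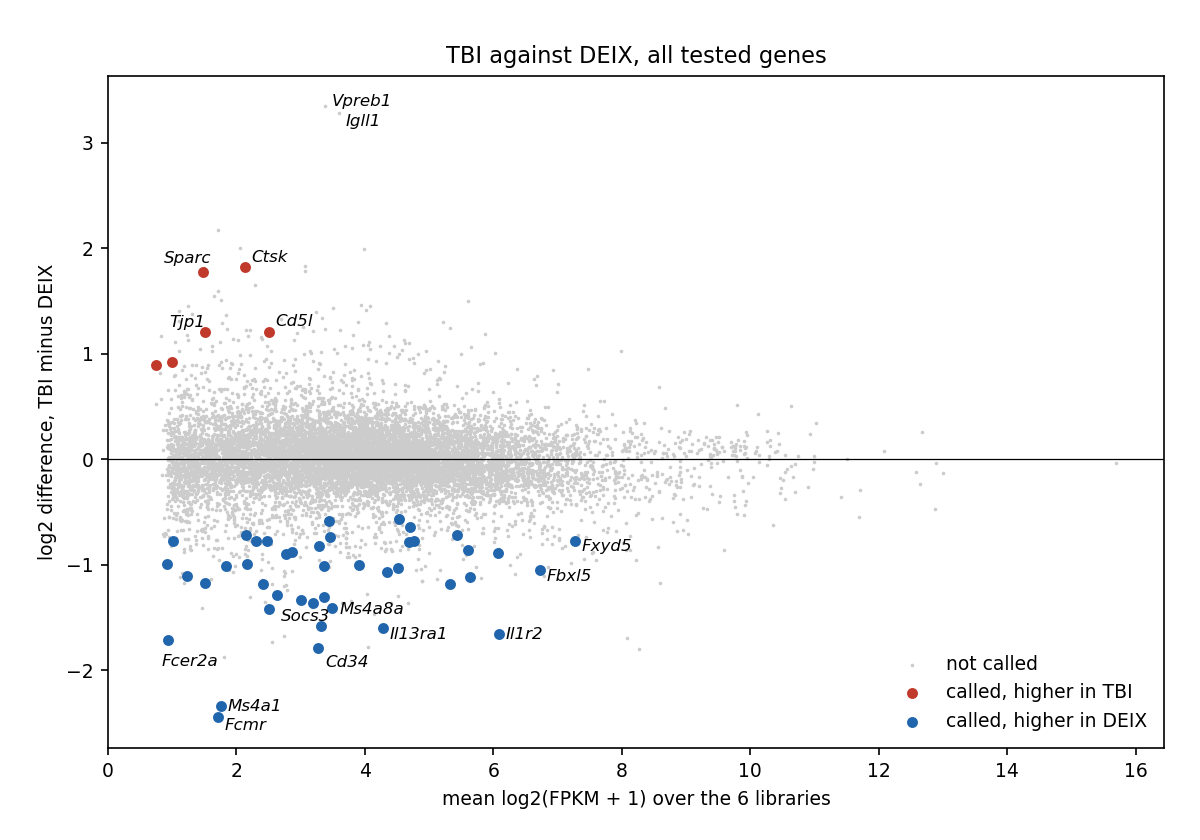
Each point is a tested gene, placed by its mean log2(FPKM + 1) over the 6 libraries (horizontal) and its log2 difference, TBI minus DEIX (vertical); red points are the 6 genes called higher in TBI, blue points the 43 called higher in DEIX, grey points were not called, and S100a9 and Ngp are left out. The called genes lie mostly below 0, and Vpreb1 and Igll1 have the highest differences of all without being called.

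The most negative differences among the called genes were those of Fcmr and Ms4a1, genes of late B cells. Of 11 tested genes of recombination and the pre-B receptor, which act in early B cells, 8 had their higher means in TBI, and none was called. The upstream sequences of a pair of pre-B receptor genes, whose means were higher in TBI, and of a late B cell gene called higher in DEIX are shown here because Vpreb1 and Igll1 had the highest differences of all tested genes, without being called, and Fcer2a was at the edge of detection in TBI. Each is the 250 bases before the start of the RefSeq transcript on GRCm38.p6, read 5′ to 3′ on the gene's strand. The Vpreb1 window lies inside the interval of that gene in vM21, 1588 bases from the vM21 start (chr16:16868403-16870843), while the RefSeq start was used here. Vpreb1 lies at chr16:16869256-16869505 (minus strand), Igll1 at chr16:16863986-16864235 (minus strand) and Fcer2a at chr8:3694175-3694424 (minus strand). Capitals mark E-boxes, CAGNTG on either strand, the letters bound by E proteins such as the B cell factor E2A, and the sequence CCCNNGGG, a core of sites of the B cell factor EBF1.
Vpreb1: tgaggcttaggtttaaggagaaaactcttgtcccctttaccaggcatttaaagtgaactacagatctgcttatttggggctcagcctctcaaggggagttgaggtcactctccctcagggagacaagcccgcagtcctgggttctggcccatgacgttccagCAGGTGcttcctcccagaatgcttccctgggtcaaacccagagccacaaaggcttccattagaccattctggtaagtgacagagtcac
Igll1: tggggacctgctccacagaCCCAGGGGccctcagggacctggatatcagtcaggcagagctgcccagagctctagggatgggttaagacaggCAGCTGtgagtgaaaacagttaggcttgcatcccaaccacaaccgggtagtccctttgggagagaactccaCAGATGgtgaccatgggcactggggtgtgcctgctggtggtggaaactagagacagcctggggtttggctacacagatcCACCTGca
Fcer2a: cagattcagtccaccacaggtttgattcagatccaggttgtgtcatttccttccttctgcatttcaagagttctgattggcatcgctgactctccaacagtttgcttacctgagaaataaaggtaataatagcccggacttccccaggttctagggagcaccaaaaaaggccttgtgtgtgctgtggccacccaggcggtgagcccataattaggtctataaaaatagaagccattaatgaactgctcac
The Igll1 window held 3 E-boxes and 1 CCCNNGGG, none overlapping another, the Vpreb1 window held 1 E-box, and the Fcer2a window held neither. Over the 8532 tested genes with a window, 36.7% held an E-box and 15.2% a CCCNNGGG. Among the 34 windows of genes called higher in DEIX the shares were 55.9% and 17.6%. Among the 4 windows of genes called higher in TBI, 3 held an E-box and 1 a CCCNNGGG. The octamer ATTTGCAT, the letters bound by Oct factors such as the called Pou2f2, was in 1 of those 34 windows (2.94%) against 1.22% of all tested windows. These are matches of letters only.

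Called B cell genes with surface products included Ms4a1, Fcmr and Fcer2a, all 3 higher in DEIX and low in TBI. All 3 were under an FPKM of 1 in every TBI library, so they reached the level for testing only through the DEIX libraries. Ms4a1, which encodes CD20 (chr19:11249675-11266241 on GRCm38), had an FPKM of 0.314, 0.546 and 0.664 in the TBI libraries and of 5.14, 6.28 and 8.78 in the DEIX libraries. The lowest DEIX library stood far above the highest TBI library, and the control libraries, at 25.2, 18 and 22.6, stood above both. The log2 difference was -2.34 ± 0.187 (SE, adjusted p = 0.015 by limma). Fcmr, the Fc receptor for IgM, was at 0.315, 0.343 and 0.592 in TBI and at 4.37, 9.23 and 7.28 in DEIX, with a log2 difference of -2.45 ± 0.231 (adjusted p = 0.0237), the most negative of the called genes. Here too the groups were far apart, and the control mean was 19.3. Fcer2a, the low-affinity IgE receptor CD23, was at 0.00906, 0.0814 and 0.0793 in TBI, at the edge of detection, and at 1.47, 3.2 and 3.02 in DEIX. Its log2 difference was -1.72 ± 0.21 (adjusted p = 0.0343), and its control mean of 5.24 was again above both groups.

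In bulk RNA, fewer cells of a type and less RNA per cell cannot be told apart, here and for every cell type below. Of 13 tested surface and signalling genes of B cells, these 3 were called, all higher in DEIX, as were 0.404% of all tested genes. Of the 13, 10 had the higher mean in DEIX, with a median log2 difference of -0.69 against -0.000588 for all tested genes. That median was -0.356 without TBI replicate 1 and, over the members with a mean FPKM of at least 5, -0.0844. Of genes that were not called, the inhibitory receptor Cd22 (-1.05, adjusted p = 0.12), the survival factor receptor Tnfrsf13c (-0.90, adjusted p = 0.168) and the late B cell transcription factor Ikzf3 from the list of regulators (-0.83, adjusted p = 0.0789), had libraries that did not overlap, with DEIX above. Over the libraries left out, the difference of Tnfrsf13c ran from -1.08 to -0.549. Pou2f2, the gene of the octamer-binding factor Oct-2 of mature B cells, was at 4.74, 4.28 and 4.04 in TBI and 8.6, 9.78 and 8.16 in DEIX. It was the only called gene among 11 tested B cell transcription factors (-0.88 ± 0.105, adjusted p = 0.0343), and its control mean of 9.22 was near the DEIX level. Of these 11, 6 had the higher mean in TBI and 5 in DEIX, with a median of 0.0331. That median was 0.568 without TBI replicate 1 and -0.184 without TBI replicate 3.

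Most tested genes of B cell precursors had their higher means in TBI. Vpreb1, a component of the surrogate light chain, was at 4.69, 73.7 and 85 in TBI and at 0.984, 3.11 and 3.26 in DEIX. Igll1, its partner in that chain, was at 6.51, 74.9 and 94.2 in TBI and at 1.38, 3.85 and 4.12 in DEIX. For both genes TBI replicate 1 lay far below the other TBI libraries yet still above every DEIX library, while the control means of 35.6 and 37 fell between the low and the high TBI libraries. The log2 differences of 3.35 ± 0.972 for Vpreb1 (adjusted p = 0.145) and 3.28 ± 0.899 for Igll1 (adjusted p = 0.136) were the highest of all tested genes and did not pass the test. Vpreb2, a near-identical copy of Vpreb1 with which it can share reads, gave 1.05, 12.4 and 11.3 in TBI and 0.19, 0.756 and 0.748 in DEIX (adjusted p = 0.159).

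The recombination enzymes had the same low TBI library. Dntt, which adds bases at antibody gene joints, was at 7.2, 50.7 and 73.3 in TBI and 4.33, 7.98 and 9.49 in DEIX, so that TBI replicate 1 fell within the DEIX range. Rag1, which cuts the gene segments, was at 0.795, 13.9 and 23 in TBI and at 1.35, 1.7 and 2.28 in DEIX, with TBI replicate 1 below all DEIX libraries. The factors that start the B cell programme, Ebf1 (1, 10 and 13.3 in TBI; 1.54, 1.89 and 2.77 in DEIX) and Pax5 (1.14, 9.24 and 10.4; 1.93, 3.25 and 3.12), overlapped in the same way. Of 11 tested genes of recombination and the pre-B receptor none was called by limma and 5 had an unadjusted p under 0.05. The higher mean was in TBI for 8 and in DEIX for 3. Libraries stood apart for 3 with TBI above and for 1 with DEIX above (10.7% and 14.6% of all tested genes). The list median of 1.51 became 2.72 without TBI replicate 1 and 0.909 without TBI replicate 3.

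**Figure D2:**
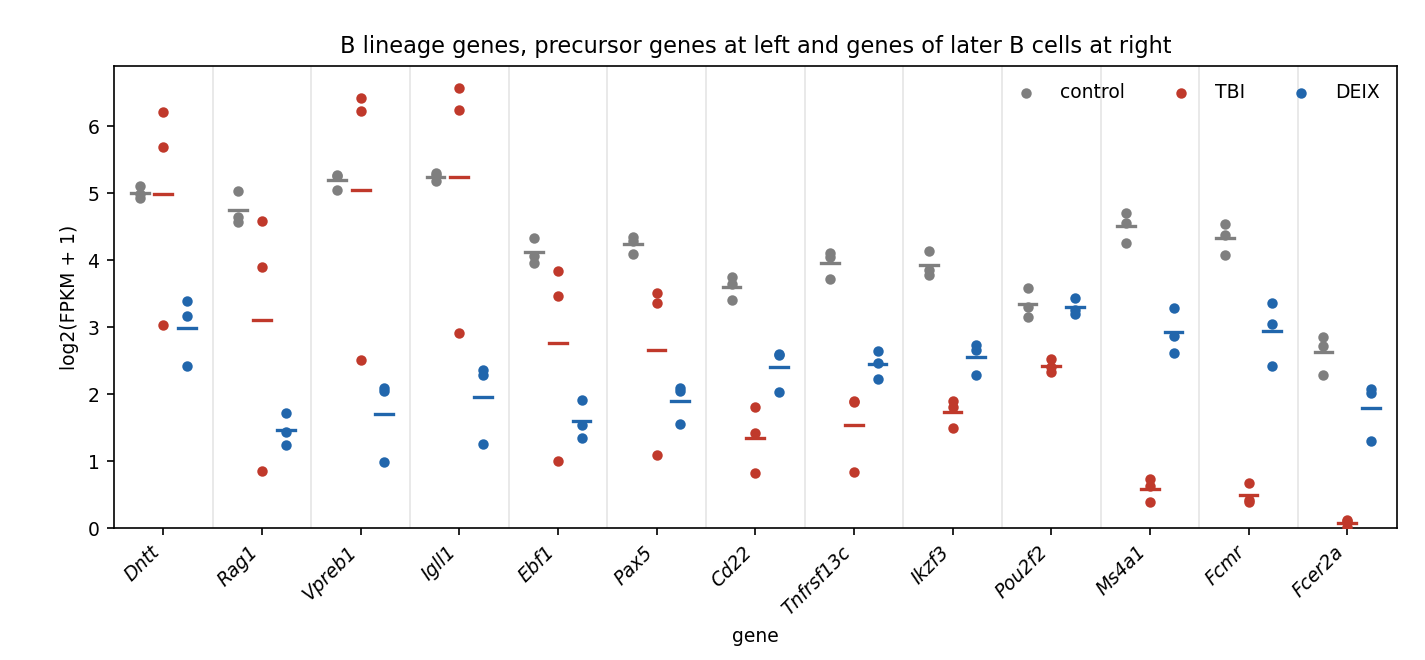
Levels of 13 B lineage genes, log2(FPKM + 1) on the vertical axis, in the 3 control (grey), 3 TBI (red) and 3 DEIX (blue) libraries, one point a library with a bar at the group mean; genes of precursors are at the left, genes of later B cells at the right. TBI libraries lie above DEIX for Vpreb1 and Igll1 with 1 low TBI library, and below DEIX without overlap from Cd22 rightward.

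Other lymphocyte genes were also higher in DEIX. Cd2, an adhesion receptor of T, NK and B cells, was at 1.89, 2.55 and 2.14 in TBI and at 5.44, 5.19 and 5.42 in DEIX (SE of the log2 difference 0.11, adjusted p = 0.0341), a ratio of means of 2.44. The DEIX libraries were nearly equal, and the control mean, 14.6, was above both groups. The TNF receptor family member Cd27 (1.33, 1.45 and 1.77 against 3.67, 4.42 and 4.15) and the checkpoint receptor Lag3 (0.915, 0.847 and 0.948 against 3.82, 3.36 and 2.74) differed with log2 differences of -1.01 (adjusted p = 0.0343) and -1.17 (adjusted p = 0.0341). The inhibitory receptor Btla was at 6.75, 5.73 and 4.36 in TBI and at 12.8, 20 and 13.6 in DEIX, where the control mean was 14.4. Of 16 tested T and NK cell genes only Cd2 was called, 15 had the higher mean in DEIX, and the median was -0.329; the T cell receptor genes Trac and Trbc1 were not analysed here. Ccl5, a chemokine of cytotoxic lymphocytes, was at 15.6, 27.9 and 19.6 in TBI and 29.3, 49.9 and 36.8 in DEIX (adjusted p = 0.143).

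Genes of stem and progenitor cells were called in the same direction. Cd34, a sialomucin of progenitors, was at 7.01, 2.92 and 3.44 in TBI and at 13.9, 18.5 and 18.8 in DEIX. The DEIX libraries approached the control values of 21.2, 21 and 20.3, and the TBI libraries stayed well below. The log2 difference was -1.79 ± 0.264 (adjusted p = 0.0485). Meis1, a homeobox factor of stem cells, was at 0.512, 0.523 and 0.609 in TBI and 1.56, 1.64 and 1.78 in DEIX, where the control mean was 1.77 (-0.78 ± 0.109, adjusted p = 0.0438). Of 14 tested genes on the stem cell list 3 were called, all higher in DEIX, as were 0.404% of all tested genes. Of the 14, 11 had the higher mean in DEIX, with a median of -0.506. Kit, the stem cell factor receptor, overlapped (14.2, 14 and 13.1 in TBI, 13.8, 18.7 and 16.5 in DEIX), while the cytokine receptor Flt3 (-1.06, adjusted p = 0.0705) and the niche factor Angpt1 (-0.92, adjusted p = 0.0778) had libraries that stood apart. Adgrl4, an adhesion receptor known from endothelium that was on none of the lists, was at 3.91, 1.96 and 1.87 in TBI and 7.44, 9.18 and 8.28 in DEIX, beside a control mean of 8.41 (-1.42 ± 0.211, adjusted p = 0.0485).

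Among megakaryocyte genes, Itga2b, the platelet integrin chain CD41, was at 2.09, 3.54 and 3.39 in TBI and 7.73, 9.16 and 9.17 in DEIX (-1.29 ± 0.164, adjusted p = 0.0359). Its control mean of 9.5 was close to DEIX. The platelet chemokines Pf4 and Ppbp were not called: Pf4 was at 4.02, 17.1 and 12.2 in TBI and 22.1, 27.6 and 37.4 in DEIX (adjusted p = 0.154), and Ppbp at 5.06, 8.28 and 7.33 against 13.4, 14.1 and 35.9 (adjusted p = 0.127). Both stood apart with DEIX above, yet their control means of 61.3 and 40 lay above the DEIX means. Of 13 tested genes on the list, 12 had the higher mean in DEIX (median -0.466), and 1 was called.

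Among genes of neutrophils and monocytes, several were called for which DEIX stood above control while TBI lay near it. Il1r2, the decoy receptor for interleukin-1 on neutrophils and monocytes, was at 47.8, 33 and 33.1 in TBI and at 146, 114 and 103 in DEIX. The TBI libraries sat around the control values of 33.9, 36.6 and 33.6, and every DEIX library stood far above. The log2 difference was -1.66 ± 0.184 (adjusted p = 0.0341). Il13ra1, a chain of the interleukin-13 receptor, was at 14.3, 9.44 and 7.73 in TBI and at 35.4, 31.5 and 32.2 in DEIX, beside a control mean of 9.15 (-1.60 ± 0.195, adjusted p = 0.0343). Cd14, the lipopolysaccharide co-receptor of monocytes, was at 5.19, 3.71 and 3.46 in TBI and 13.8, 11.9 and 10 in DEIX, beside a control mean of 3.88 (-1.34 ± 0.161, adjusted p = 0.0343). Ms4a8a, a tetraspanning membrane protein of the CD20 family, was at 6.09, 6.39 and 5.2 in TBI and 18.6, 17.5 and 16 in DEIX, the TBI level being that of control (mean 5.97). It had the lowest unadjusted p of the called genes (-1.41 ± 0.106, adjusted p = 0.015).

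The same direction ran through the monocyte list, mostly below the threshold. All 19 tested genes of classical monocytes had the higher mean in DEIX, 16 of them without overlap of the libraries (DEIX above in 14.6% of all tested genes), the median was -0.888, and Cd14 was the 1 called. Ctss, a lysosomal protease, was at 144, 147 and 121 in TBI and at 227, 316 and 227 in DEIX (adjusted p = 0.0703). Csf1r, the receptor for the monocyte growth factor, was at 66.2, 53.7 and 41.9 in TBI and 83.2, 142 and 105 in DEIX (adjusted p = 0.101). Fibronectin, Fn1, was at 124, 106 and 85.4 against 160, 253 and 217, and the clotting factor chain F13a1 at 167, 117 and 90.8 against 249, 233 and 223, and both stood apart below the threshold. For the chemokine receptor Ccr2, the TBI values of 183, 146 and 92.9 lay below the DEIX values of 272, 229 and 256 (adjusted p = 0.124). Vcan, a matrix proteoglycan made by monocytes, had levels above control in both groups: 23, 12.2 and 6.2 in TBI and 46, 32.8 and 23.4 in DEIX, against 1.84, 2.08 and 1.13 in control, a distance from control that was not tested here. Without TBI replicate 1 the list median was -1.1, and without TBI replicate 3 it was -0.742.

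The list of mature neutrophils holds receptors and other genes, and without S100a9, whose zeros set its place, all 14 tested members had the higher mean in DEIX (median -0.541), 10 of them without overlap (DEIX above in 14.6% of all tested genes). Il1r2 and Clec4d were the called members, while 0.404% of all tested genes were called higher in DEIX. Clec4d, a C-type lectin receptor, was at 40.3, 30.2 and 29.1 in TBI and 69.2, 65.3 and 84.2 in DEIX, with control at 55.7 on average (-1.12 ± 0.152, adjusted p = 0.041). The granulocyte growth factor receptor Csf3r, at 206, 182 and 177 against 289, 277 and 343 (adjusted p = 0.0703), and the chemokine receptor Cxcr2, at 251, 173 and 178 against 398, 278 and 420 (adjusted p = 0.11), stood apart without being called. Of 11 primary granule genes, made at the promyelocyte stage, none was called, 4 had an unadjusted p under 0.05, and all had the higher mean in DEIX with a median of -0.524, which was -0.243 without DEIX replicate 1. Mpo and Elane, the most abundant of them, overlapped between the groups. Of the 14 tested genes of secondary and tertiary granules other than Ngp, none was called by limma, 0 had an unadjusted p under 0.05, and the libraries overlapped for all 14. Their median was -0.108, and 3 had the higher mean in TBI: Camp, the antimicrobial cathelicidin (6545, 7850 and 7034 in TBI against 6782, 5196 and 6013 in DEIX), Ltf, the iron-binding lactoferrin, and Itgb2l, an integrin chain. With Ngp the median was -0.132, and it was 0.0394 without DEIX replicate 1, -0.33 without DEIX replicate 2, and above 0 on the TPM scale and with quantile normalization. Cebpa, the transcription factor that commits progenitors to the granulocyte and monocyte line, was called at a smaller size: 21.2, 18.1 and 20.2 in TBI against 31.8, 32.2 and 30.6 in DEIX (-0.65 ± 0.0888, adjusted p = 0.041).

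Other called genes of immune cells fell on the same side. The chemokine Ccl9 (mean 48.9 ± 6.81 in TBI and 91 ± 3.91 in DEIX, SD, n = 3 each), the RNA sensor Tlr7 (9.73 ± 1.77 and 20.5 ± 3.03), the NK and myeloid receptor Cd244a (4.8 ± 1.4 and 13.7 ± 1.59), and Adam19, a membrane protease (13.1 ± 1.49 and 28.6 ± 1.42), all had control means nearer to TBI. Crispld2, a secreted lipopolysaccharide-binding protein, went from 35.1 ± 4.57 in TBI to 64.4 ± 0.906 in DEIX with control below both at 28.2. The interferon-inducible DNA sensor family members Ifi209 (15 ± 1.67 and 31.8 ± 4.89) and Ifi207 (6.25 ± 0.347 and 13.8 ± 2.8) were called as well, with control means of 57.3 and 12.1. Fxyd5, a sodium pump subunit, was the most abundant called gene, at 127, 113 and 113 in TBI and 207, 209 and 190 in DEIX. The other genes called higher in DEIX had ratios of mean FPKM between 1.51 (Itm2c) and 4.13 (Ankrd37). They were the membrane mucin Muc13, the cytidine deaminase Apobec1, the vesicle fusion protein Stx3, the adhesion-restraining adaptor Cytip, the mucin glycosylation enzyme Galnt6, the signalling adaptor Gab2, the lipoprotein receptor Lsr, the glycolipid enzyme B3gnt5, the autophagy regulator Tbc1d14, and Mfsd7a, Arhgef37 and Fbxl5. Fbxl5, the iron-sensing subunit of a ubiquitin ligase, was the most abundant of them, at 88.5, 68.6 and 63.1 in TBI and 165, 137 and 154 in DEIX.

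A feedback gene and a hormone-response gene were called higher in DEIX. Socs3, the cytokine-induced inhibitor of JAK-STAT signalling, was at 5.67, 4.75 and 4.02 in TBI and 22.3, 14.8 and 12.9 in DEIX, with control at 4.65, 6.16 and 6.49 (-1.58 ± 0.202, adjusted p = 0.0359). Fkbp5, a co-chaperone of the glucocorticoid receptor and a standard target of it, was at 29.5, 23 and 24.4 in TBI and at 56, 73.2 and 50.4 in DEIX, with control at 20, 21.5 and 20.9 (-1.18 ± 0.157, adjusted p = 0.041). For both genes the TBI libraries stood near control and every DEIX library above. Socs3 was the 1 called of 10 tested genes of inflammatory cytokines and NF-kB feedback, 7 of which had the higher mean in DEIX, with a median of -0.278 that was -0.453 without DEIX replicate 1. Fkbp5 was the 1 called of 9 tested glucocorticoid response genes, whose median was -1.04, and 6 of the 9 had DEIX libraries above without overlap, as in 14.6% of all tested genes. Among them the clock gene Per1 was at 12.6, 10.1 and 6.65 in TBI and 21.5, 41.1 and 16.4 in DEIX (adjusted p = 0.127), Klf9 at 3.79, 3.1 and 3.66 against 8.7, 15.7 and 6.48 (adjusted p = 0.0925), and the growth inhibitor Ddit4 at 6.59, 11.8 and 5.52 against 19.2, 38.1 and 12.2 (adjusted p = 0.154). DEIX replicate 2 was the highest library for each of these 4 genes, and without it the list median was -0.66. Of 13 tested immediate early genes none was called, 9 had an unadjusted p under 0.05, 12 had the higher mean in DEIX, and the median was -0.403; the time of day and the handling before collection were not given in the sources used here.

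**Figure D3:**
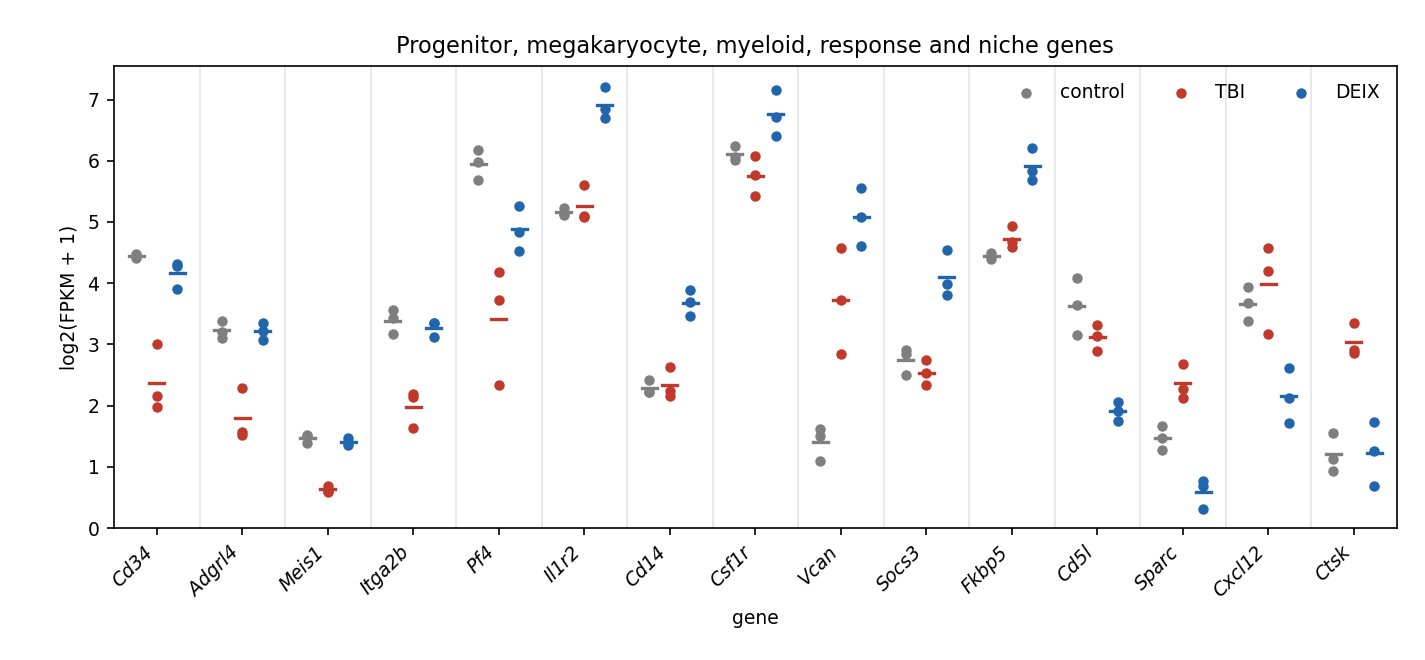
Levels of 15 genes of progenitors, megakaryocytes, neutrophils and monocytes, hormone and cytokine response, macrophages, stroma and osteoclasts, as log2(FPKM + 1), in the 3 control (grey), 3 TBI (red) and 3 DEIX (blue) libraries, with a bar at each group mean. For Cd34, Meis1 and Itga2b the DEIX points lie near control and TBI below; for Il1r2, Cd14, Socs3 and Fkbp5 the TBI points lie near control and DEIX above; for Sparc, Cxcl12 and Ctsk TBI lies above DEIX.

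Of the 6 genes called higher in TBI, 2 were on the osteoclast list, 1 on the list of stroma, bone and endothelium, 1 on the macrophage list and 2 on none. Ctsk, the collagen-degrading protease of osteoclasts, was at 6.52, 6.22 and 9.22 in TBI and 1.39, 2.31 and 0.609 in DEIX. Control, at 1.18, 0.902 and 1.94, overlapped with DEIX, and the log2 difference was 1.82 ± 0.265 (adjusted p = 0.0483). Atp6v0d2, a proton pump subunit of osteoclasts, was at 1.07, 1.37 and 1.44 against 0.184, 0.373 and 0.152, also with control (mean 0.34) near DEIX (0.89 ± 0.134, adjusted p = 0.049). These were 2 of 7 tested osteoclast genes, while 0.0564% of all tested genes were called higher in TBI. Of the 7, 5 had the higher mean in TBI, with a median of 0.655. Nfatc1, the transcription factor of osteoclast formation, stood apart the other way without being called, at 25.8, 23.8 and 23.4 in TBI and 28.1, 30.1 and 31.5 in DEIX. Acp5, the phosphatase TRAP, was not called and overlapped at 40, 18.7 and 35.4 against 13.8, 31.3 and 14.7.

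Sparc, a matrix protein of bone-forming and stromal cells, was at 3.85, 5.44 and 3.35 in TBI and at 0.239, 0.6 and 0.708 in DEIX. Control, at 2.19, 1.76 and 1.42, lay between them, and the log2 difference was 1.78 ± 0.188 (adjusted p = 0.0341). It was the 1 called of 8 tested genes on the list of stroma, bone and endothelium, of 22 listed, where the median was 1.03, 6 had the higher mean in TBI and 2 in DEIX. Pecam1, the endothelial adhesion molecule CD31, stood apart the other way, at 6.37, 6.24 and 6.37 in TBI and 8.25, 13.6 and 9.11 in DEIX, without being called. Cxcl12, the stromal chemokine that holds stem cells and B cell precursors in marrow, was at 17.3, 22.9 and 8.03 in TBI and 2.27, 5.16 and 3.34 in DEIX (adjusted p = 0.0847). Col1a2 (1.97, 3.7 and 1.75 against 0.275, 0.268 and 0.563, adjusted p = 0.0697), a chain of type I collagen, and Bglap (1.06, 3.54 and 1.02 against 0.117, 0.17 and 0.283, adjusted p = 0.125), the gene of osteocalcin, stood apart in the same direction without being called. The summed FPKM of the whole list ran from 47.69 to 75.92 in TBI, from 31.62 to 45.58 in DEIX and from 55.93 to 65.09 in control. How much bone surface was flushed into each sample was not tested. Plvap, a protein of fenestrated endothelium (1.62, 1.65 and 1.96 against 0.303, 0.401 and 0.653), and Tjp1, a tight junction scaffold (2.98, 3.08 and 3.94 against 0.68, 1.09 and 0.881), were called with log2 differences of 0.92 (adjusted p = 0.0483) and 1.20 (adjusted p = 0.0343).

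Cd5l, a secreted scavenger protein of tissue macrophages, was at 9, 7.78 and 6.39 in TBI and 2.36, 3.17 and 2.75 in DEIX (1.21 ± 0.142, adjusted p = 0.0343), where control had 15.9, 11.5 and 7.86. It was the 1 called of 15 tested genes of erythroblastic island and iron-recycling macrophages, 12 of which had the higher mean in TBI, with a median of 0.476. Spic, the transcription factor of iron-recycling macrophages, was at 3.64, 3.99 and 3.3 in TBI and 0.776, 1.76 and 2.01 in DEIX (adjusted p = 0.0961). The complement gene C1qa, at 20.3, 19.4 and 12.9 against 12.5, 9.23 and 12.8, was barely apart (adjusted p = 0.187), and its control values, 38.2, 40.4 and 36.1, were above both.

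The place of the control mean varied among the called genes. Of the 43 higher in DEIX, the control mean was above both groups for 14, among them Ms4a1, Fcmr, Fcer2a, Cd2, Cd34, Meis1 and Itga2b. It lay between the groups and nearer to DEIX for 10, between and nearer to TBI for 10, and below both for 9, among them Il1r2, Cd14, Il13ra1 and Fkbp5. For the 6 higher in TBI, control was between and nearer to DEIX for 3, between and nearer to TBI for 1, above both for 1 and below both for 1. In percent, the 43 divided into 32.6 above both, 23.3 between and nearer to DEIX, 23.3 between and nearer to TBI, and 20.9 below both. The genes that were not called divided into 28.3, 14.3, 15.5 and 41.9 percent in the same order. These places are positions of means; no distance from control was tested.

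**Figure D4:**
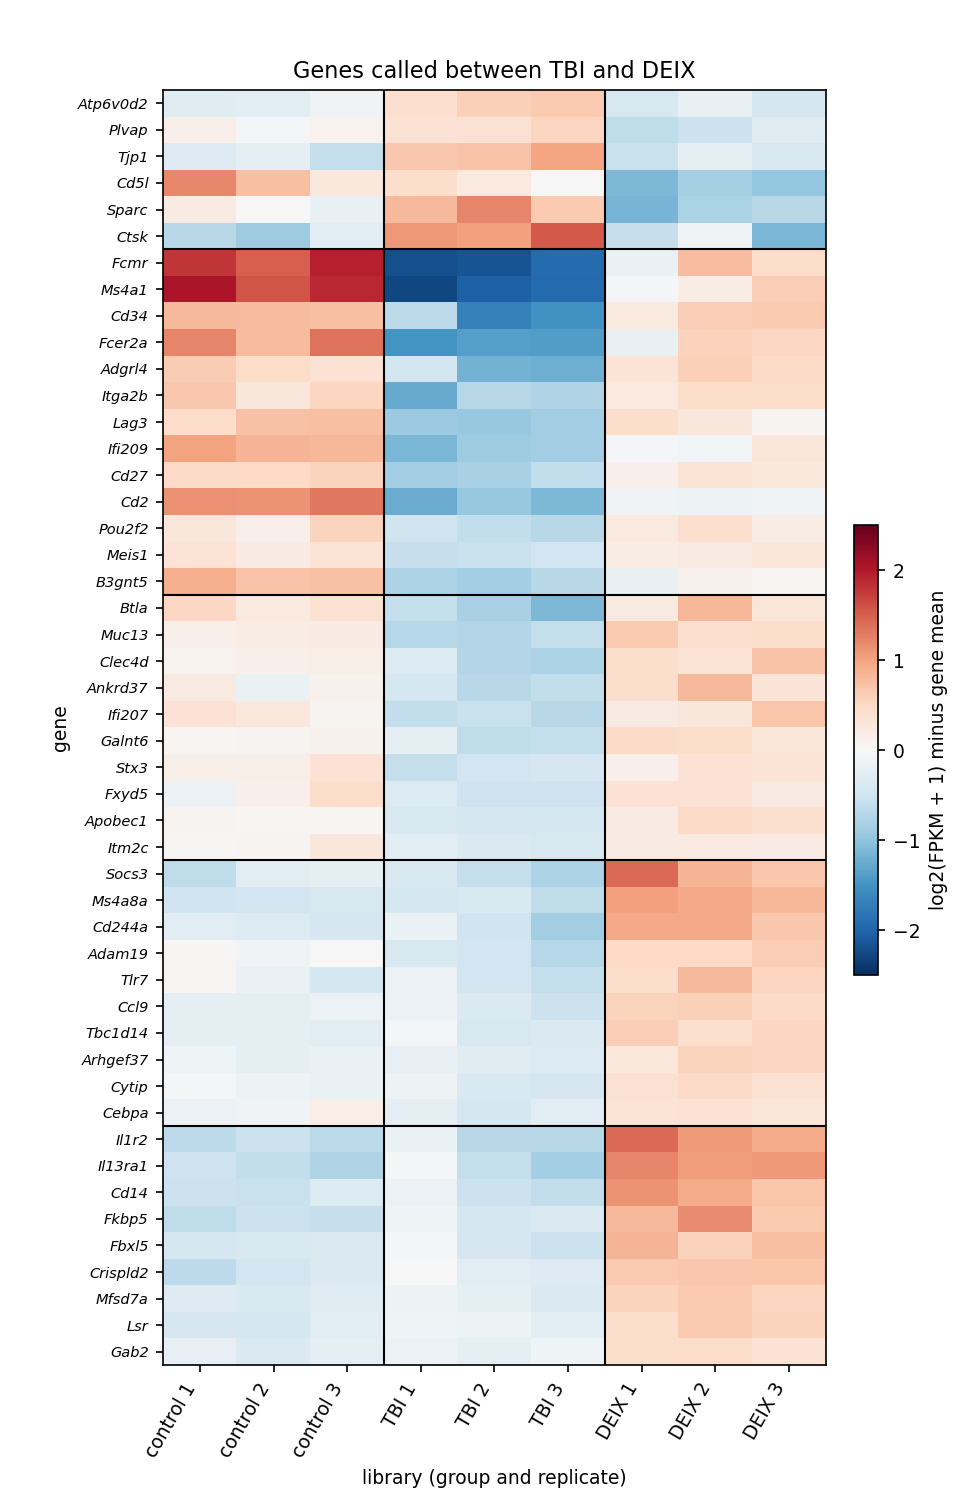
The called genes (rows, 48 of the 49) in the 3 control, 3 TBI and 3 DEIX libraries (columns), coloured by log2(FPKM + 1) minus the gene's mean over the 9 libraries, red above and blue below. The top block holds the 6 genes higher in TBI; the blocks below hold genes higher in DEIX, by control mean above both groups (13 of the 14), between and nearer to DEIX (10), between and nearer to TBI (10) and below both (9).

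Genes of DNA synthesis had slightly higher means in TBI. All 24 tested DNA replication genes had the higher mean in TBI, 20 of them without overlap (TBI above in 10.7% of all tested genes), with a median of 0.402, and none was called by limma, while 20 had an unadjusted p under 0.05. Rrm2, a subunit of ribonucleotide reductase, was at 255, 220 and 293 in TBI and 174, 204 and 147 in DEIX (0.55 ± 0.157, adjusted p = 0.143). Pcna, the sliding clamp of DNA polymerase, was at 251, 242 and 312 against 195, 234 and 169 (adjusted p = 0.196). Control lay at a mean of 175 for Rrm2 and 253 for Pcna, close to DEIX for the former and to TBI for the latter. All 24 mitosis genes likewise had the higher mean in TBI, with a median of 0.26 and no call (10 at an unadjusted p under 0.05). The S phase cyclin Ccne2, at 43.6, 38.2 and 51.3 against 26.4, 24.7 and 26.5, also stood apart (0.75 ± 0.118, adjusted p = 0.0588). The repair gene Fancd2 (adjusted p = 0.0847), the fork-associated Parpbp (adjusted p = 0.071) and the cell cycle repressor E2f7 (adjusted p = 0.0834) did so too, with TBI above.

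A few more genes stood apart with TBI above without being called. Lpl, the lipoprotein lipase, was at 10.1, 17 and 12.7 in TBI and 4.19, 6.87 and 4.35 in DEIX (1.21 ± 0.22, adjusted p = 0.0705). The list of lipid handling genes that holds it had 10 of its 20 tested members higher on average in each group, none called and 7 at an unadjusted p under 0.05, with a median of 0.00814 (-0.044 without TBI replicate 2 and 0.127 without DEIX replicate 1). Cd81, a tetraspanin of B cells and many other cells, was at 76.1, 90.8 and 79.5 against 52.8, 52.6 and 59.2 (adjusted p = 0.0705), with control between at 67.3. Fcna, a ficolin of tissue macrophages, was at 13.1, 11 and 8.56 against 4.37, 4.13 and 6.38 (adjusted p = 0.0741), with control above both at 17.5. The sensor kinase Pask (adjusted p = 0.0697) and the filament protein Mns1 (adjusted p = 0.071) did so as well.

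Targets of p53, the factor switched on by DNA damage, showed no called gene among 20 tested (5 at an unadjusted p under 0.05, median 0.119, and 0.187 without TBI replicate 1). Cdkn1a, the cell cycle inhibitor p21, was at 11.1, 12.3 and 13.2 in TBI and 9.56, 8.11 and 7.81 in DEIX (0.48 ± 0.11, adjusted p = 0.102). Phlda3, an Akt inhibitor, was at 1.08, 1.19 and 1.8 against 0.398, 0.316 and 0.263 (adjusted p = 0.0705), and it was the member with the highest difference. Both stood apart between the groups. Of 20 genes of DNA break signalling and repair, 18 had the higher mean in TBI (median 0.284), none was called and 8 had an unadjusted p under 0.05.

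Antibody-secreting cells gave an uneven picture. None of 10 tested plasma cell genes was called by limma, 2 had an unadjusted p under 0.05, 8 had the higher mean in DEIX and the median was -0.543, with values of -0.335 without DEIX replicate 1 and -0.837 without DEIX replicate 2. Their summed FPKM was 485.1, 528.6 and 410.9 in TBI and 1252, 324.5 and 1150 in DEIX, so DEIX replicates 1 and 3 were high and DEIX replicate 2 was the lowest of the 6. The list medians of dendritic cells (-0.264, 11 tested) and of eosinophils, basophils and mast cells (-0.201, 15 tested) also lay on the DEIX side, and no gene of either was called, with 4 and 8 genes at an unadjusted p under 0.05. Without TBI replicate 1 these medians were -0.119 and -0.0967, and without TBI replicate 2 the second was -0.44. The second list was split, with the higher mean in TBI for 6 of its 15 tested genes and in DEIX for 9. Libraries stood apart for 4 with TBI above and 3 with DEIX above (10.7% and 14.6% of all tested genes). The eosinophil markers Epx (3.19, 7.13 and 4.8 in TBI, 1.86, 2.1 and 1.86 in DEIX) and Prg2 (44.6, 63.4 and 53.6 against 38.6, 40.7 and 38.5) stood apart with TBI above.

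Red cell genes varied within both groups. Adult beta globin Hbb-bs was at 3355, 642 and 976 in TBI and at 548, 3536 and 450 in DEIX. One library of each group, TBI replicate 1 and DEIX replicate 2, was high, and the other 4 were low, so that the ranges covered each other. Alas2, the first enzyme of haem synthesis in erythroid cells, showed the same pair of high libraries at 132 and 113 among values of 18, 45.5, 23 and 24.6. No gene was called by limma on the lists of globins (0 of 4 at an unadjusted p under 0.05), haem synthesis (3 of 10), red cell membrane (1 of 15) or erythroid regulators (6 of 12). The higher mean was in TBI for 4 of 4, 10 of 10, 15 of 15 and 11 of 12 of them, with medians of 0.506, 0.571, 0.767 and 0.684. Without DEIX replicate 2 these medians were 1.34, 1.09, 1.31 and 1.21. The globin median was -0.148 without TBI replicate 1, that of haem synthesis 0.383 without DEIX replicate 3, and those of red cell membrane and regulators 0.422 and 0.409 without DEIX replicate 1. The erythroid master regulator Gata1, at 28.7, 29.5 and 51.5 in TBI and 10.2, 31.2 and 11.6 in DEIX, overlapped only through DEIX replicate 2 (adjusted p = 0.198).

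The called Ifi209 and Ifi207 were not on the list of the type I interferon response. Among the 23 tested genes of that list none was called by limma and 3 had an unadjusted p under 0.05; the median was -0.0952 and 0.0646 without DEIX replicate 3, and the list mean of log2(FPKM + 1) ran from 3.36 to 3.65 in TBI and from 3.31 to 3.99 in DEIX, both below the 5.11 to 5.38 of control. Ifi27l2a, the most abundant member, was at 52.8, 130 and 66.4 in TBI and 74.5, 55.1 and 93.6 in DEIX, where control had 626, 766 and 735. All 18 genes of MHC class I presentation had the higher mean in DEIX, 10 of them without overlap (DEIX above in 14.6% of all tested genes), with a median of -0.263, and none was called (9 at an unadjusted p under 0.05). Of 10 MHC class II genes 7 had the higher mean in DEIX, with a median of -0.381 and no call (5 at an unadjusted p under 0.05).

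Metabolic lists held no called gene either. Glycolysis genes had a median of -0.235, with 15 of 19 higher on average in DEIX and 3 at an unadjusted p under 0.05, and the median was -0.0912 without DEIX replicate 1. Targets of ATF4, the amino acid response factor, had a median of 0.284, with 14 of 16 higher on average in TBI and 5 at an unadjusted p under 0.05. For 76 nuclear genes of oxidative phosphorylation the median was 0.134, and 0.0258 without DEIX replicate 3, with 2 at an unadjusted p under 0.05. For 81 ribosomal protein genes it was 0.11, and -0.0148 without DEIX replicate 3, with 0 at an unadjusted p under 0.05.

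Genes tied to the compound's class were searched as well. Of 26 glutathione and antioxidant genes tested, none was called, 1 had an unadjusted p under 0.05, and the median was 0.103. Ggt1, a glutathione-cleaving enzyme, was at 16.4, 7.19 and 5.6 in TBI and 37.3, 7.99 and 17.9 in DEIX and overlapped. Prdx2, a peroxidase that red cells hold in quantity, was at 249, 168 and 320 against 97.5, 247 and 93.1. Of 26 genes of carotenoid uptake and retinoid metabolism only 12 reached the level for testing, none was called, 3 had an unadjusted p under 0.05, and the median was -0.119. It was -0.195 without DEIX replicate 3, -0.0408 without TBI replicate 2 and 0.033 on the TPM scale.

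**Figure D5:**
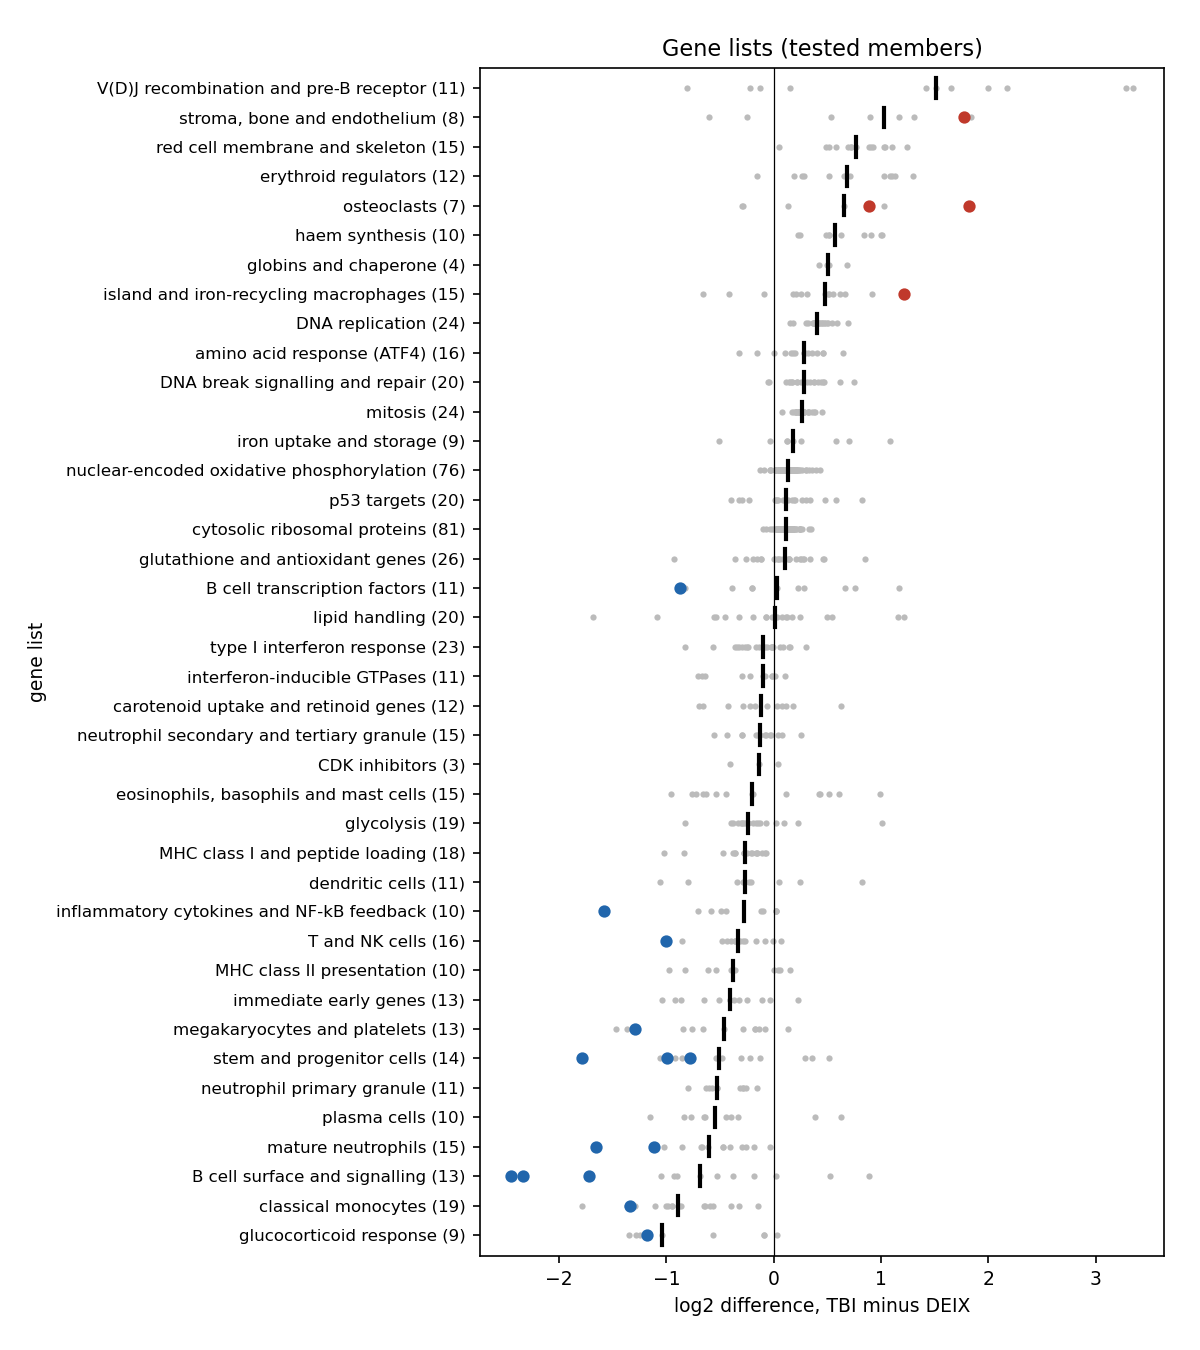
Log2 difference, TBI minus DEIX (horizontal), of the tested members (grey points) of each gene list (rows, number tested in brackets), with the median as a black bar and called genes in red (higher in TBI) or blue (higher in DEIX); S100a9 and Ngp are not drawn but count in the medians. Lists are ordered by median, from glucocorticoid response at -1.04 to recombination and the pre-B receptor at 1.51.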

How the data were processed

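The authors deposited 1 table of FPKM values for 21853 genes in 12 libraries. Reads were processed with STAR 2.6 and Cufflinks 2.2.1 on mm10, per the submitters' processing notes, and a directional mRNA kit was used on total RNA, per the labels' protocols. Without counts no count model could be fitted, and the read depth is unknown. Steps between low values gave the FPKM that 1 read is worth, relative to TBI replicate 1, as 0.807 and 1.09 in TBI replicates 2 and 3 and as 1.53, 1.04 and 1.17 in the DEIX libraries, larger where a library is shallower. All 21853 gene IDs matched GENCODE vM21, which gave symbols and coordinates, and 24 symbols are shared by several IDs.

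Genes that reached an FPKM of 1 in 3 or more of the 6 TBI and DEIX libraries were tested as log2(FPKM + 1) with limma 3.58.1 in R 4.3.3 (lmFit, eBayes with a mean-variance trend, 4 residual degrees of freedom), with Benjamini-Hochberg adjustment over 10647 genes. A gene under an FPKM of 1 in all libraries of a group could enter the test only through the other group. Among called genes these included Ms4a1, Fcmr, Fcer2a, Lag3, Meis1 and Ankrd37, which entered through DEIX. They also included Sparc, Plvap and Atp6v0d2, which entered through TBI. The script was tested on simulated data. Named genes were called genes without overlap of the libraries whose higher group had a mean FPKM of 5 or more, the 12 of the most extreme differences in each direction, with free places filled by the smallest unadjusted p, plus the 4 most abundant tested members and every called member of a list. Some named genes are not reported here. Other genes, and the promoter motifs, were chosen after their values were seen. The comparison and the gene lists were chosen with earlier results of these data known, so no list was tested as a set: lists are given by counts and medians. Lists of osteoclast, stromal, liver and muscle genes were included as markers of other cell types. Promoter windows came from RefSeq (GRCm38.p6); 34 of the 43 genes called higher in DEIX and 8532 of 10640 tested symbols had one. Figures and lists used Python 3.11.15 with pandas 2.3.3. Alternatives covered the libraries in the model, pseudocount, filter, scaling, trend, library weights, a minimum difference, the replicate block and each library left out.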

Additional observations from a re-analysis of the deposited data

How the results depend on the processing

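The 49 called genes kept their direction under every alternative in which they were tested, but their number did not hold. As the TBI and DEIX libraries of all 49 did not overlap, leaving out 1 library or changing the pseudocount could not reverse a direction. A model of all 12 libraries called 46, of which 13 were higher in TBI and 22 were shared with the 49. With the 9 libraries other than TBI+DEIX the count was 541 (138 higher in TBI, 403 higher in DEIX), and all 49 were among them. With library weights, whose fit did not fully converge, it was 2149 (885 and 1264). A mean FPKM of at least 5 left 22 (1 and 21), the TPM scale 14 (10 higher in DEIX), the TPM scale without the 3 genes with failed estimates 31 (27 higher in DEIX), and a log2 difference of at least 1 left 28 (24 higher in DEIX). A pseudocount of 0.1 gave 3 genes higher in TBI, and no filter on low values gave 32 among 69 (46.4% of calls). The causes were not tested. Leaving out 1 library at a time gave 0 to 387 calls, 0 to 127 higher in TBI and 0 to 260 higher in DEIX. With the replicate number as a block, 8 genes were called, 0 higher in TBI and 8 higher in DEIX. The deviations of same-numbered libraries from their group means had correlations of 0.0195, -0.227 and -0.37. Deviations within a group of 3 sum to 0, so these values cannot decide whether the numbers mark a pairing.

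Of the genes named, 5 that were not called changed sign: Alas2 (-0.57 with library weights, -0.471 without TBI replicate 1, -0.141 without DEIX replicate 1, -0.0958 without DEIX replicate 3, and 0.984 without DEIX replicate 2), Hbb-bs (-0.271 without TBI replicate 1, -0.119 without DEIX replicate 3, and 1.37 without DEIX replicate 2), Ltf (-0.0948 with library weights, -0.0168 without TBI replicate 1, and -0.22 to 0.249 over the libraries left out), Itgb2l (-0.00985 with library weights, -0.0292 without DEIX replicate 2, and -0.0305 to 0.106 over the libraries left out) and Ifi27l2a (-0.292 without TBI replicate 2, -0.114 without DEIX replicate 2, and 0.351 without TBI replicate 1). Some list medians moved with the setting. Over members with a mean FPKM of at least 5 they were -0.217 for stem cells, -1.29 for megakaryocytes, 0.135 for osteoclasts and 0.14 for stroma, each over fewer genes. With a pseudocount of 5 they were 0.261 for macrophages and -0.206 for megakaryocytes, and with 0.1 it was 1.76 for stroma. On the TPM scale they were -0.106 for MHC class I, -0.247 for immediate early genes, 0.443 for DNA repair, 0.419 for mitosis, 0.276 for p53 targets, 0.261 for antioxidant genes, -0.233 for MHC class II, 0.447 for ATF4 targets, -0.0768 for glycolysis, 0.269 for ribosomal proteins, 0.292 for oxidative phosphorylation and 0.164 for lipid handling. With library weights the globin median was just below 0, and medians were -0.106 for T and NK cells, -0.629 for the glucocorticoid response, -0.0701 for inflammatory genes and -0.014 for eosinophils, basophils and mast cells. The unknown read depth limits genes of low FPKM such as Fcer2a most.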
